A study of Rattus norvegicus with 144 samples.

Results

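The genes described here encode the subunits of the mitochondrial respiratory chain and of ATP synthase. Members were all probe sets whose platform annotation gave 1 symbol beginning with Ndufa, Ndufb, Ndufc, Ndufs, Ndufv, Sdh followed by a, b, c or d, Uqcr, Cox4, Cox5, Cox6, Cox7, Cox8, Atp5 or Cyc1. Assembly factors with Ndufaf or Sdhaf symbols were left out (12 probe sets). The rule gave 90 probe sets for 81 of the 14217 genes with 1 symbol in the larger of both deposited tables, and 85 probe sets for 80 of 10411 genes in the smaller, and each of those 85 was also in the larger. Complex I had 39 probe sets (36 genes), complex II 5 (4 genes), complex III 9 (8 genes), complex IV 17 (17 genes) and complex V 20 (16 genes). The prefixes also caught 6 probe sets of genes that do not encode subunits: the ATP synthase inhibitor Atp5if1 with 3 probe sets, Cox7a2l, the pseudogene Cox6c-ps1 and Ndufa4l2. Ndufa4 and Ndufa4l2 are counted with complex I by their symbols, although Ndufa4 is known as a complex IV subunit. A further 7 probe sets of these families were left out because they carried several symbols. No member was dropped for a low value.

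Complex I passes electrons from NADH to ubiquinone, and complex II, which is also the succinate dehydrogenase of the citric acid cycle, passes them on from succinate. Complex III hands them to cytochrome c and complex IV to oxygen, and complex V makes ATP with the proton gradient. Most subunits are encoded in the nucleus and imported, and in complex I a conserved core carries out catalysis while many accessory subunits surround it. The steroid-making cortex of the adrenal gland is known for its dense mitochondria, in which cholesterol side-chain cleavage takes place. Acinar cells of the pancreas make digestive enzymes and hepatocytes carry much of the body's intermediary metabolism.

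Transcripts were read on 144 Affymetrix arrays from 72 male Sprague Dawley rats aged 8 to 10 weeks, given AMG A or AMG B by mouth each day. Both compounds are known only by code name, and the series text describes their pharmacology as antiangiogenic. The doses were 3 or 30 mg/kg for AMG A, and 3 or 60 mg/kg for AMG B, each beside controls at 0 mg/kg, with 4 rats in each of 36 groups. For AMG B, liver and adrenal were sampled after 1, 4 and 14 days and pancreas after 14. For AMG A, liver was sampled after 1, 4 and 14 days, and adrenal and pancreas after 14. The smaller table held the 36 livers of the AMG A study and the larger the other 108 arrays, so levels were compared only within a table. Values are scores: each probe set was standardised over the arrays, so that 0 is its mean and 1 its standard deviation. A difference in score therefore gives no fold change, and scores do not rank one gene's abundance against another's. In tissue RNA, fewer cells of a type and less RNA per cell cannot be told apart. All tests are limma's, two-sided, fitted over every probe set of a table and adjusted by Benjamini-Hochberg within the contrast, and a member is called when its adjusted p was under 0.05.

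The tissues carried their own marker genes. In the larger table the acinar genes Cpa1, a carboxypeptidase, and Pnlip, pancreatic lipase, scored at least 1.59 and 1.61 in all 24 pancreas arrays and at most -0.42 elsewhere. Cyp11b1, the enzyme that completes glucocorticoid synthesis, scored 1.00 to 2.02 in the 48 adrenal arrays and at most -0.67 elsewhere. The 2 albumin (Alb) probe sets scored at least 0.08 and 0.22 in its 36 livers and at most -0.55 and -0.63 elsewhere. Pancreas arrays varied in the spread of their scores (SD 1.15 to 1.99), and the widest, 1.99, was that of AMG B 3 mg/kg animal 30. Several pancreas arrays also had high scores for markers of other cells. The mean of 13 lymphocyte probe sets reached 6.72 in AMG A study control animal 3009 and 4.66 in AMG B 60 mg/kg animal 33, and that of 16 skeletal muscle probe sets 4.82 in AMG A 30 mg/kg animal 3036. In the adrenal, the mean of 11 fibroblast and matrix probe sets was 4.91 in AMG B 60 mg/kg animal 35 and -0.44 to -0.22 in the other 3 of its group.

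In control rats the whole chain was not high or low as a block in any tissue, though some complexes leaned to a tissue. The highest mean lay in adrenal, liver and pancreas for 11, 13 and 15 probe sets of complex I. For complex IV the counts were 7, 4 and 6. The adrenal was highest for 7 of 9 probe sets of complex III and 12 of 20 of complex V, and the pancreas lowest for all 5 of complex II. In the day 14 controls of the AMG B study, 40 of 90 member probe sets (44.4%) had their highest mean in the adrenal, 28 (31.1%) in the pancreas and 22 (24.4%) in the liver. Over all probe sets the shares were 32.5%, 38.2% and 29.3%. Between liver and pancreas 31 members were higher and 29 lower in liver, where limma called 54.2% of all probe sets. Between adrenal and pancreas 42 were higher and 31 lower in adrenal (57.6% of all probe sets called), and between liver and adrenal 24 were higher and 29 lower in liver (43.6% of all).

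Complex II was low in the pancreas throughout. All 5 of its probe sets were lowest in the pancreas, and the mean over them ran from -1.62 to -1.17 in the 4 control pancreases, against 0.76 to 0.95 in the adrenals and 0.49 to 0.63 in the livers of the same rats. Sdha, the flavoprotein that oxidises succinate, scored 1.97, 1.41, 1.78 and 1.98 in the control adrenals, -0.17, -0.22, -0.18 and -0.15 in the livers and -0.88, -1.17, -1.31 and -1.04 in the pancreases. No 2 tissues overlapped. Its adrenal mean was 2.88 ± 0.19 score units above the pancreas (SE; adjusted p = 1.34e-13), and both Sdhd probe sets, for a membrane anchor of the enzyme, were 2.81 and 3.02 higher in liver than in pancreas (adjusted p = 4.36e-12 and 1.51e-13).

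Atp5f1a, the alpha subunit of the catalytic head of ATP synthase, stood far apart in the adrenal. Its scores there were 2.18, 1.87, 1.61 and 2.05, against -1.18, -0.93, -1.29 and -0.26 in the pancreas, and in the liver it averaged -0.60 ± 0.08 (SD, n = 4). The adrenal exceeded the pancreas by 2.84 ± 0.28 (SE; adjusted p = 5.96e-10), whereas liver and pancreas did not differ beyond their spread (adjusted p = 0.348). Atp5f1b, the beta subunit, followed the same order with means of 0.91 ± 0.33, -0.78 ± 0.11 and -1.59 ± 0.21 in adrenal, liver and pancreas (SD, n = 4 each). Of the complex I core, Ndufv1, which binds NADH, averaged 1.71 ± 0.28 in the adrenal, 0.28 ± 0.27 in the liver and -0.83 ± 0.64 in the pancreas. Ndufs1, which carries iron-sulfur clusters, averaged 0.93 ± 0.22, 0.16 ± 0.08 and -1.11 ± 0.24 in the same order of tissues (SD, n = 4 each). Cyc1, the cytochrome c1 of complex III, was high in the adrenal (1.46 ± 0.12), while liver (-0.04 ± 0.33) and pancreas (-0.28 ± 0.19) did not differ beyond their spread (adjusted p = 0.579).

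Uqcrc1 and Uqcrfs1, the core protein and the Rieske iron-sulfur protein of complex III, ran in another order. Uqcrc1 averaged 1.38 ± 0.12 in the adrenal, 0.60 ± 0.26 in the pancreas and -0.31 ± 0.21 in the liver. Uqcrfs1 averaged 1.42 ± 0.13, 0.74 ± 0.44 and -0.04 ± 0.24 (SD, n = 4 each), and for both genes each step passed the test, with adjusted p no higher than 0.00887. In complex IV, Cox4i1, the common form of subunit 4, was higher in adrenal (1.04 ± 0.46) than in pancreas (-0.34 ± 0.26), with the liver between at 0.30 ± 0.31. Cox5a showed no tissue difference that passed the test, with means of -0.62 ± 0.21 in adrenal and 0.81 ± 0.37 and 0.83 ± 0.48 in liver and pancreas. The adjusted p was 0.211 for liver minus adrenal and 0.175 for adrenal minus pancreas. That fit shared a spread over the dosed groups of all tissues too, so these values do not show that the control levels were alike. Cox6c averaged 1.08 ± 0.30 in the adrenal, 0.51 ± 0.24 in the liver and -0.47 ± 0.93 in the pancreas, where its scores spread from -1.14 to 0.86. Ndufa9, an accessory subunit with 2 probe sets, had means of 1.46 and 1.06 in the adrenal, 0.42 and 1.13 in the pancreas and 0.16 and -0.96 in the liver. Its probe sets thus disagree on whether adrenal and pancreas differ. Sdhb, the iron-sulfur protein of complex II, averaged 1.24 ± 0.21 in the adrenal, 0.06 ± 0.10 in the liver and -1.28 ± 0.05 in the pancreas.

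Among the members highest in the pancreas, Cox6b2, known as the testis form of subunit 6b, scored 2.07, 3.28, 2.45 and 3.01 in the control pancreases, -0.71 to -0.47 in the adrenals and -0.28 to -0.15 in the livers. Adrenal minus pancreas was -3.26 ± 0.27 (SE; adjusted p = 2.85e-11), whereas the common form Cox6b1 averaged 0.44 ± 0.71 in pancreas, 0.62 ± 0.62 in liver and -0.78 ± 0.10 in adrenal. Ndufa4l2, a relative of the complex IV subunit Ndufa4 that is known as a hypoxia-inducible gene, gave a liver minus pancreas difference of -3.32 ± 0.33 (adjusted p = 5.20e-10). Ndufa3 and Ndufs6, an accessory subunit of the membrane arm and one near the NADH-oxidising module, had adrenal minus pancreas differences of -3.11 and -3.02 (adjusted p = 5.66e-12 and 2.59e-09). Among other isoform pairs, Cox4i2, the lung form of subunit 4, averaged 1.34 ± 0.85 in liver, 0.07 ± 1.01 in pancreas and -1.15 ± 0.54 in adrenal. Cox8b, a form of brown fat and striated muscle, averaged 1.03 ± 0.35 in the adrenal, against -0.49 ± 0.06 in the pancreas and -0.48 ± 0.04 in the liver, and Cox8a averaged 0.46 ± 0.39, -1.46 ± 0.26 and 0.31 ± 0.36 in the same order. Cox7a1, the heart and muscle form of subunit 7a, averaged 1.38 ± 0.40, -0.86 ± 0.21 and 0.77 ± 0.73 in that order (SD, n = 4 throughout). For Cox6a2 no tissue contrast passed the test. Its shared spread took in the dosed pancreases, where Cox6a2 varied widely, so like control levels were not shown.

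**Figure D1:**
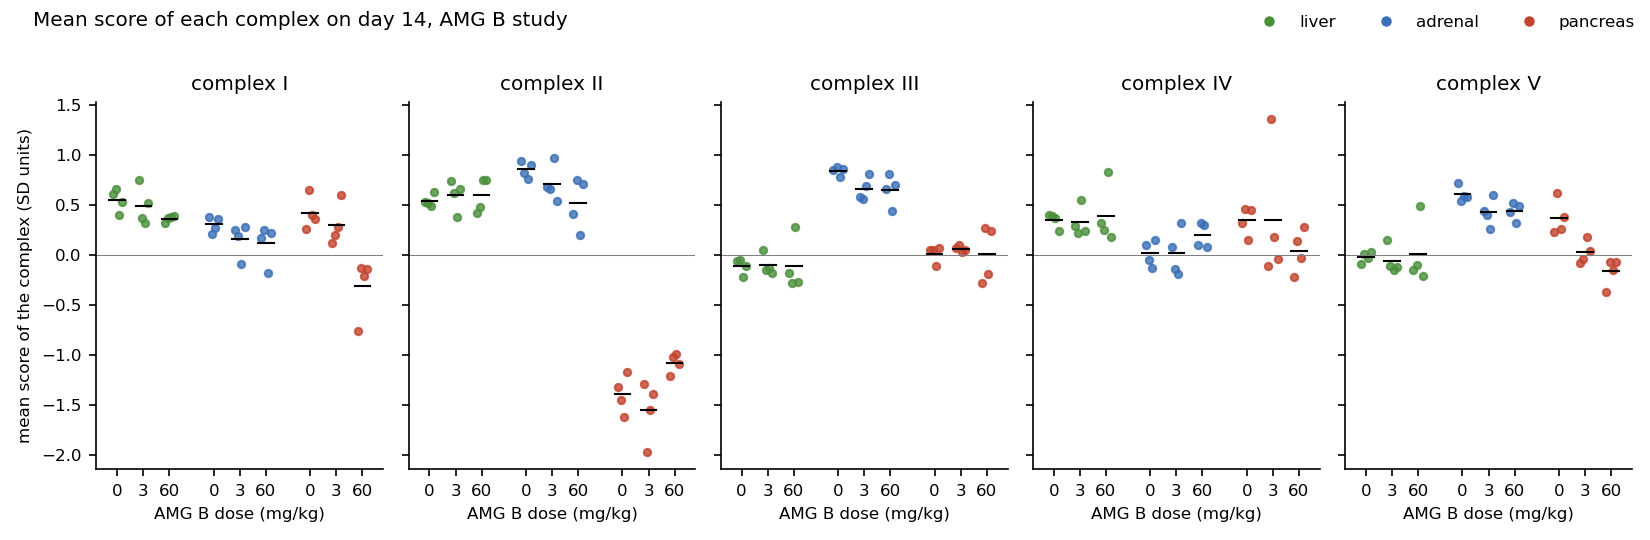
Mean score of the probe sets of each complex (vertical axis, SD units) in each animal on day 14 of the AMG B study, by tissue and dose (0, 3 and 60 mg/kg); points are animals and bars group means. Complex II lies at or below -0.99 in every pancreas, and complex I in the pancreas lies below 0 in all 4 rats at 60 mg/kg.

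The pancreas at AMG B 60 mg/kg on day 14 gave the most calls of any dose group. Of 90 member probe sets, 4 rose and 22 fell, a share of 28.9%, where 9.88% of all probe sets were called. By symbol, complex I had 14 falls and 2 rises of 39, complex V 5 falls of 20, complex IV 2 falls of 17, complex III 1 of each of 9, and complex II 1 rise of 5. Grouped after the values were seen, 13 falls of complex I came from its 31 accessory probe sets (median difference -1.05) and the other was Ndufa4l2, and none of the 6 core probe sets passed the test (median -0.09, range -0.99 to 0.37). In control pancreases of the AMG A study the core probe sets averaged from -1.49 (Ndufv1) to 0.03 (Ndufs8). Members with high levels there fell more often, as given below, and the part of level in this split was not tested. The F1 head of ATP synthase had 1 fall of 5 probe sets (median 0.46) and the other subunits of complex V 2 falls of 12 (median -0.74), and both other falls were of the inhibitor Atp5if1. The median difference over all members was -0.31, against -0.02 over all probe sets.

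The mean over the complex I probe sets was -0.76, -0.13, -0.21 and -0.14 in the treated rats, against 0.26, 0.65, 0.40 and 0.36 in the controls, and the groups did not overlap. For complex V it was -0.36, -0.07, -0.15 and -0.07 in treated rats and 0.23, 0.62, 0.27 and 0.38 in controls, again without overlap. For complex II it was -1.21, -1.02, -0.99 and -1.09 in treated rats and -1.32, -1.45, -1.62 and -1.17 in controls, and here 1 control lay within the treated range. The day 14 control pancreases of the AMG A study, which do not enter this contrast, had complex I means of -0.53, 0.06, 0.05 and -0.39. Those overlapped the rats treated with AMG B and lay below the AMG B study controls. The difference between both control groups was not tested.

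Markers of other cells moved in the same arrays, and their part in these results was not tested. All 11 acinar marker probe sets were called lower, with a mean of 1.33 to 1.54 in the treated rats and 2.18 to 2.90 in controls. Fibroblast and matrix probe sets, of which 2 of 11 were called higher, had means of 0.18 to 4.58 in treated rats and 0.36 to 1.35 in controls, and cell cycle probe sets, 6 of 12 called higher, 0.05 to 3.02 and -0.28 to 0.39. Endothelial probe sets (2 of 12 called lower) had means of -0.95 to 0.22 in treated rats and -0.50 to 0.38 in controls. The number of called members was 21 without animal 33, which carried the lymphocyte markers, and 17 without control animal 26, the lowest count when a rat was left out. It was 16 with only the compared groups in the fit.

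**Figure D2:**
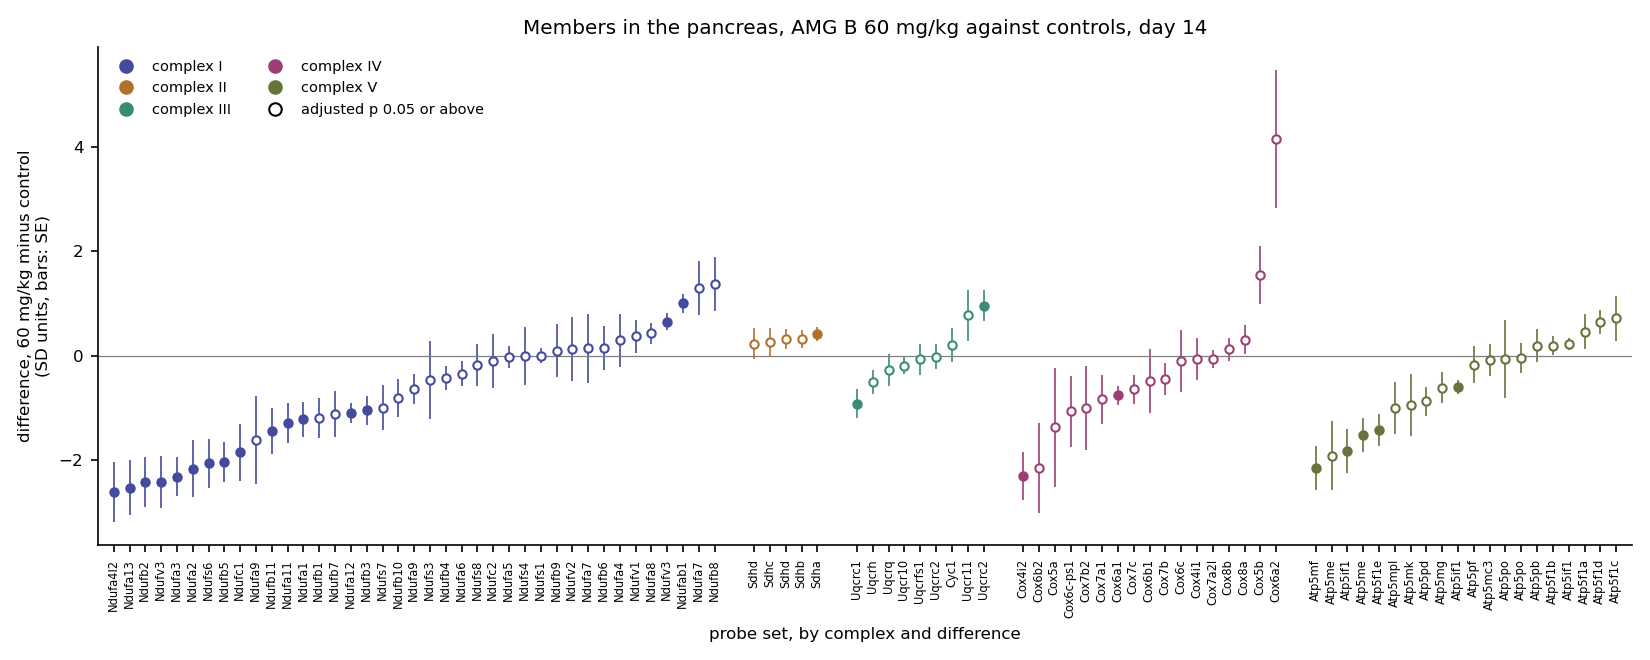
Difference in score between AMG B 60 mg/kg and control pancreases on day 14 (vertical axis, SD units, bars SE, n = 4 each) for the 90 member probe sets ordered by complex and difference. Filled points passed an adjusted p of 0.05, and of the 26 filled points 22 lie below 0.

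Ndufa4l2 had the largest fall, with scores of -0.65, 0.55, 0.09 and 0.70 in treated pancreases and 3.09, 3.68, 1.92 and 2.42 in controls (difference -2.61 ± 0.58, SE; adjusted p = 0.00835). Ndufb2, an accessory subunit of the membrane arm, scored -1.08, -0.48, 0.01 and -0.38 in treated rats, against 1.21, 2.13, 2.47 and 1.94 in controls (-2.42 ± 0.49; adjusted p = 0.00438). Every treated rat lay below every control for both genes, by more than 1 score unit. Ndufa3 was at -0.41, 0.46, 0.26 and 0.25 in treated rats and at 2.08, 2.74, 2.81 and 2.21 in controls (-2.32 ± 0.38; adjusted p = 0.00104). Ndufa2, a soluble accessory subunit with a thioredoxin-like fold, scored -1.25, -0.84, -0.56 and -0.80 in treated rats and 1.74, 2.11, 1.05 and 0.31 in controls (-2.16 ± 0.55; adjusted p = 0.0177). Its call ended without control animal 26 (adjusted p = 0.0634). Ndufs6, a zinc-binding subunit, scored -0.54, 1.01, 0.86 and 0.36 in treated rats, against 2.00, 2.84, 2.83 and 2.26 in controls (-2.06 ± 0.46; adjusted p = 0.00863). The lowest of these treated values is animal 33's in Ndufa4l2, Ndufb2, Ndufa3, Ndufa2 and Ndufs6 alike, and animal 33 also carried the lymphocyte markers named above.

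Outside complex I, Atp5mf, the f subunit of the membrane part of ATP synthase, scored -1.70, -2.30, -0.86 and -2.11 in treated pancreases and 0.47, 0.47, 0.11 and 0.58 in controls (-2.15 ± 0.42; adjusted p = 0.00338). Cox4i2 scored -3.16, -2.12, -2.48 and -1.18 in treated rats, against 0.69, 1.13, -1.04 and -0.51 in controls (-2.30 ± 0.46; adjusted p = 0.00427). The treated range of Cox4i2 begins close to the lowest control, whereas the groups of Atp5mf stand well apart. The remaining falls were Ndufa13 (-2.53, the one called member whose groups overlapped), Ndufb5, Ndufc1, both called Atp5if1 probe sets, Atp5me, Ndufb11, Atp5f1e, Ndufa11, Ndufa1, Ndufa12, Ndufb3, Uqcrc1 and Cox6a1, with differences from -2.03 in Ndufb5 to -0.60 in Atp5if1. The other Atp5me probe set, with a difference of -1.92, was not called (adjusted p = 0.0711).

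The 4 rises were smaller. Ndufab1, the mitochondrial acyl carrier protein that also sits in complex I, scored -1.23, -0.59, -0.90 and -0.43 in treated rats and -1.95, -1.65, -2.02 and -1.54 in controls (1.00 ± 0.18; adjusted p = 0.00186). Sdha scored -0.85, -0.59, -0.62 and -0.65 in treated rats, against -0.88, -1.17, -1.31 and -1.04 in controls (0.42 ± 0.13; adjusted p = 0.0471), and the groups nearly touched. A Uqcrc2 probe set (1382280_at), for the second core protein of complex III, scored -0.23, 0.28, 0.05 and 0.16 in treated rats and -0.69, -0.88, -1.62 and -0.39 in controls (0.96 ± 0.30; adjusted p = 0.0469). The other Uqcrc2 probe set was not called.

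Ndufv3, an accessory subunit of the NADH-oxidising module, had probe sets on opposite sides. Its probe set 1368566_a_at scored -1.76, -0.49, -1.02 and -0.81 in treated pancreases and 1.60, 2.15, 1.29 and 0.56 in controls (-2.42 ± 0.50; adjusted p = 0.00507). Its probe set 1368567_at scored -0.26, -0.09, -0.42 and -0.27 in treated rats, against -0.79, -1.17, -0.70 and -0.997 in controls (0.66 ± 0.16; adjusted p = 0.0147). Neither pair of groups overlapped, so no direction can be given for the gene, and the mean of both probe sets gave -0.88 (adjusted p = 0.0181). Of the 8 genes with several member probe sets, Atp5if1 and Uqcrc2 also had probe sets of both signs. Of the 26 calls, 16 held whichever of the 8 rats was left out, among them Ndufa3, Ndufb2, Ndufs6, Ndufa4l2, Atp5mf, Cox4i2, Ndufb5, Ndufa13 and Ndufab1. The calls of Sdha and Uqcrc2 ended in 6 and 7 of the 8 omissions, with adjusted p up to 0.132 and 0.151, and those of Ndufa11 and Ndufc1 in 7 each.

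**Figure D3:**
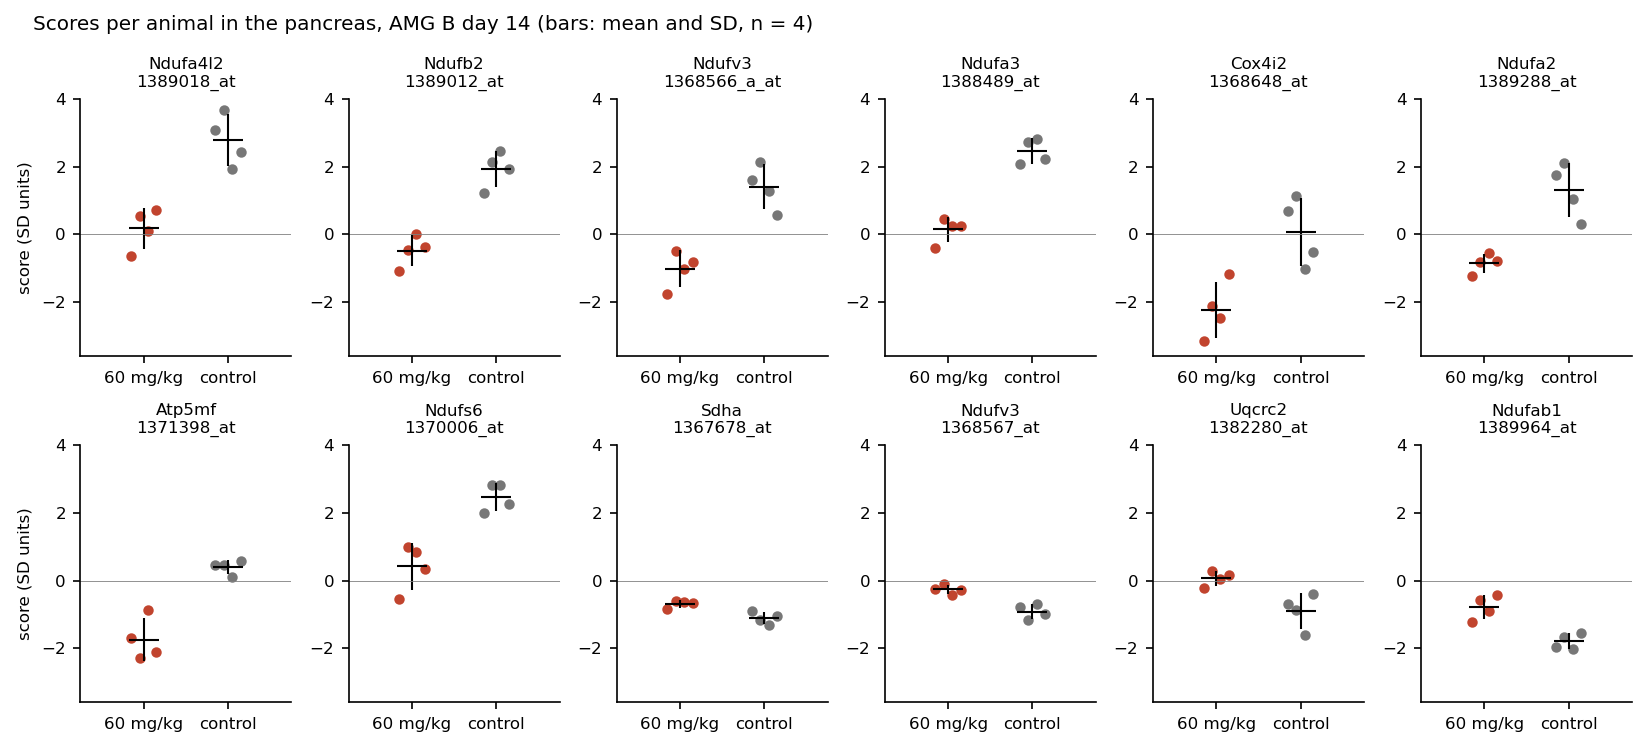
Score of each rat (vertical axis, SD units) at AMG B 60 mg/kg (left in each panel) and in controls (right) for the 12 pancreas probe sets with the largest called differences in each direction whose groups did not overlap. Bars give mean and SD (n = 4), and 8 probe sets lie lower and 4 higher in the treated rats.

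The members were also grouped by their level in the pancreas. Levels were taken from the AMG A study controls, which do not enter the AMG B contrast. Of 18 members above 1 in those controls 9 fell and none rose, with a median difference of -1.21, and of 19 members between 0 and 1, 6 fell. Of 25 members below -1, 2 rose and 2 fell, with a median of 0.30. All probe sets were ordered alike but less steeply: of 7124 above 1, 121 rose and 777 fell (median -0.42), and of 4628 below -1, 528 rose and 97 fell (median 0.24). The same order was seen in liver, with day 1 controls as the level: 4 of 12 members above 1 fell (median -0.48), against 3 of 46 between 0 and 1 (median -0.05), while all probe sets above 1 had a median of -0.13. In the adrenal, with AMG A study controls as the level, 3 of 26 members above 1 fell (median -0.22) and 3 of 31 between 0 and 1 (median -0.12), where the medians over all probe sets were -0.03 and 0.00. The spread within groups also moved with the level: in the larger table the median SD was 0.476 where the group mean was above 1 and 0.279 where it was below -0.5, and its part in this order was not tested.

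**Figure D4:**
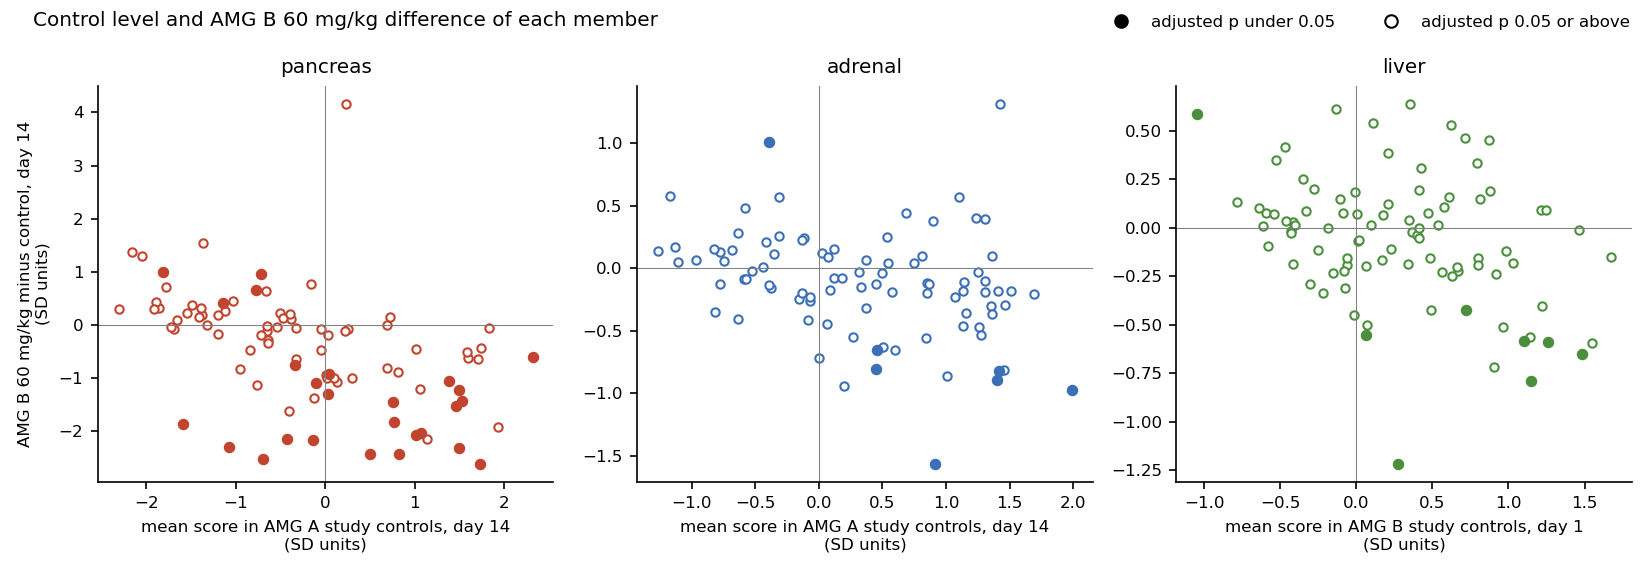
Difference in score at AMG B 60 mg/kg on day 14 (vertical axis, SD units) against the mean score in controls that do not enter the contrast (horizontal axis, SD units) for the 90 members in pancreas, adrenal and liver. Filled points passed an adjusted p of 0.05, and the falls lie mainly to the right of 0 in each tissue.

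The 7 lists of other mitochondrial genes were read beside the 9.88% of all probe sets called in this contrast, of which 1546 rose and 1521 fell. The shares called were 20.0% for the citric acid cycle, 17.2% for import, 12.0% for regulators, 10.0% for antioxidant genes, 9.28% for the mitochondrial ribosome, 8.77% for assembly factors and 8.33% for carriers, so the last 4 lay near the share of all probe sets. Of 20 citric acid cycle probe sets 4 rose and none fell: Cs, citrate synthase, with 2 of its 4 probe sets (1.16 ± 0.19 and 1.66 ± 0.32, SE; adjusted p = 0.00114 and 0.00342), Dld, the lipoamide dehydrogenase (0.94 ± 0.17), and Idh3b, an isocitrate dehydrogenase subunit (1.21 ± 0.27). Cs probe set 1369967_at scored 0.64, 0.62, 0.52 and 1.09 in treated rats and -0.47, -0.51, -0.50 and -0.26 in controls, with no overlap. Of 29 import probe sets 4 rose and 1 fell, the rises being 2 of the 4 probe sets of Hspa9, the matrix chaperone that drives import (2.05 ± 0.33 and 1.83 ± 0.33), and both of the receptor Tomm70 (1.13 and 1.49), and the fall Pmpca, a presequence peptidase subunit (-2.88 ± 0.62). Of 57 assembly factor probe sets 4 rose and 1 fell, and of 97 mitochondrial ribosome probe sets 6 rose and 3 fell. Of 25 probe sets for regulators of mitochondrial gene expression, Tfam, which packages and transcribes mitochondrial DNA (1.42 ± 0.44; adjusted p = 0.0469), and Gabpa (1.70 ± 0.45; adjusted p = 0.022) rose. Ppargc1b, a coactivator of respiratory genes, fell (-2.82 ± 0.47; adjusted p = 0.00129), with -2.52, -0.98, -3.38 and -2.25 in treated rats and 0.63, -0.08, 0.82 and 0.80 in controls. Of 24 probe sets for electron carriers, uncouplers and carriers 2 rose, Coq6 and Coq9 of ubiquinone synthesis, and of 10 antioxidant probe sets 1 fell, Gpx4. The median differences of these lists were 0.23, 0.32, 0.17, 0.23, 0.29, 0.14 and 0.08 for the citric acid cycle, import, assembly factors, ribosome, regulators, carriers and antioxidant genes in that order, against -0.31 for the respiratory chain. These lists were drawn up with results of these data known.

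At 60 against 3 mg/kg of AMG B in the pancreas, 5 members rose and 9 fell, where 3.68% of all probe sets were called. The largest falls were Ndufa13 (-2.62 ± 0.52; adjusted p = 0.00913), Ndufv3 probe set 1368566_a_at (-2.24 ± 0.50), Ndufa3 (-2.14 ± 0.38) and Ndufb2 (-2.11 ± 0.49). The largest rises were Atp5f1c, the gamma subunit that turns within the ATP synthase head (1.87 ± 0.43; adjusted p = 0.0204), Uqcrc2 (1.09 ± 0.30), Ndufab1 (0.86 ± 0.18) and Ndufv3 probe set 1368567_at (0.64 ± 0.16). The count was 8 without animal 30, whose array had the widest scores, 8 without animal 36 and 9 without animal 32, and 6 of the 14 calls held in every omission. The count was 0 with only the compared groups in the fit. At 3 mg/kg against controls 0 of 90 members were called (0.0226% of all probe sets), and 9 had an unadjusted p under 0.05, where 8.79% of all probe sets did.

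The muscle isoform Cox6a2 was high in single treated pancreases. It scored 0.55, 4.02, 0.20 and 9.85 at AMG B 60 mg/kg and -0.72, -0.32, -0.70 and -0.28 in controls (4.16 ± 1.32, SE; adjusted p = 0.0515), and every treated rat lay above every control. Animal 36, with 9.85, also had the skeletal muscle actin Acta1 at 6.93, while animal 34, with 4.02, had Acta1 at -0.08. At AMG A 30 mg/kg Cox6a2 scored 1.84 in animal 3036, whose Acta1 was 8.24. The part of muscle in the Cox6a2 scores was not tested.

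AMG A at 30 mg/kg gave no call in the pancreas, and most of the differences were positive. Of 90 members 0 were called (0.00322% of all probe sets), 31 had an unadjusted p under 0.05, where 6.72% of all probe sets did, and 74 were positive, against 52.9% of all probe sets. The median difference was 0.53 over the members and 0.03 over all probe sets, and by complex it was 0.85, -0.18, 0.29, 0.34 and 0.41 for complexes I to V. Ndufc1, an accessory subunit of complex I, scored 2.45, 0.07, 2.51 and 1.86 in treated pancreases and -2.76, -1.09, -0.53 and -1.97 in controls (3.31 ± 0.55; adjusted p = 0.0575). Ndufa2 scored 1.73, 1.73, 4.17 and 3.46 in treated rats, against -0.93, -0.23, 0.76 and -0.14 in controls (2.91 ± 0.55; adjusted p = 0.159). Neither gene's groups overlapped, although neither passed the threshold. The mean over complex I was 0.78, 0.18, 1.00 and 0.81 in treated rats and -0.53, 0.06, 0.05 and -0.39 in controls, and again the groups did not overlap. The day 14 controls of the AMG B study, at 0.26 to 0.65, lay within the range of these treated rats. Without treated animal 3034, the lowest of them, 3 members were called. Acinar marker means were 1.80 to 2.13 in treated rats and 1.85 to 2.46 in controls, and lymphocyte means -0.04 to 3.39 and -0.11 to 6.72. Their part in these differences was not tested. The AMG A and AMG B doses differ, so their values are set side by side without a comparison. At AMG A 3 mg/kg 0 of 90 members were called (0.00322% of all), and 4 had an unadjusted p under 0.05, where 3.67% of all probe sets did.

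In the adrenal at AMG B 60 mg/kg on day 14, 6 members fell and 1 rose, a share of 7.78%, where 5.96% of all probe sets were called. The falls included some catalytic subunits that stand highest in this tissue, but others that do so hardly moved. Atp5f1b (-0.19), Ndufs1 (-0.10), Sdhb (-0.18) and Cyc1 (-0.20) were not called, with adjusted p from 0.656 in Sdhb to 0.803 in Ndufs1. Ndufs7, a core subunit of complex I that carries its last iron-sulfur cluster, scored 0.41, 0.66, -0.33 and -0.68 in treated adrenals and 1.43, 1.92, 1.02 and 1.95 in controls (-1.56 ± 0.34; adjusted p = 0.00345). Atp5f1a scored 0.89, 1.30, 0.74 and 0.90 in treated rats, against 2.18, 1.87, 1.61 and 2.05 in controls (-0.97 ± 0.23; adjusted p = 0.00598). Neither gene's groups overlapped, and both calls held in every omission. Sdha scored 1.06, 1.16, 0.45 and 1.17 in treated rats and 1.97, 1.41, 1.78 and 1.98 in controls (-0.82 ± 0.20; adjusted p = 0.00762), and Ndufv1 0.56, 1.34, 0.69 and 0.69, against 1.99, 1.81, 1.34 and 1.69 (-0.89 ± 0.25; adjusted p = 0.027). For Ndufv1 the highest treated rat almost met the lowest control. Ndufb11, an accessory subunit of the membrane arm, scored 0.31, 0.02, -0.88 and -0.04 in treated rats and 0.83, 0.38, 0.63 and 0.80 in controls (-0.81 ± 0.22; adjusted p = 0.0205). Uqcr11, a small subunit of complex III, scored 0.77, 0.43, -0.23 and 0.29 in treated rats, against 1.08, 0.82, 1.02 and 0.95 in controls (-0.65 ± 0.21; adjusted p = 0.0489).

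The rise was Cox4i2, at -0.15, 0.15, -0.05 and -0.48 in treated adrenals and -1.62, -1.35, -1.24 and -0.37 in controls (1.01 ± 0.23; adjusted p = 0.00495), where 1 control lay within the treated range. Animal 35, which carried the fibroblast and matrix markers, was the lowest treated rat for Sdha, Ndufb11, Uqcr11 and Atp5f1a. Without it 3 members were called and the adjusted p of Sdha was 0.0538, and without control animal 25 or 28 the count was 4. With only the compared groups in the fit no member was called. The calls of Ndufv1, Uqcr11 and Ndufb11 ended in 6, 7 and 3 of the 8 omissions, with adjusted p up to 0.1, 0.228 and 0.142. Cell cycle probe sets, 4 of 12 called higher, had means of 0.80 to 2.66 in treated rats and 0.05 to 0.74 in controls, endothelial ones (4 of 12 called lower) -0.57 to 0.59 and 0.39 to 0.87, and adrenal cortex ones, none of 8 called, 1.23 to 1.59 and 1.17 to 1.57. The part of these cells was not tested. Against 3 mg/kg, 0 of 90 members were called (4.5% of all probe sets), and 15 had an unadjusted p under 0.05, where 17.4% of all did. Without animal 29 or 34 the count was 3 or 4.

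Among related genes in these adrenals, where 967 of all probe sets rose and 884 fell (5.96% called), 11 of 97 mitochondrial ribosome probe sets fell and none rose, from -0.47 ± 0.12 in Mrps7 to -1.36 ± 0.22 in Mrpl34 (adjusted p = 0.0156 and 7.09e-05). In the citric acid cycle, Idh3g (-0.81 ± 0.14), Idh3b (-0.75 ± 0.21) and Suclg2 (-1.27 ± 0.32) fell, and both called probe sets of Pdha1, a pyruvate dehydrogenase subunit, rose by 1.04 and 1.09. Of the assembly factors, Atpaf2, which helps build the ATP synthase head, fell by 1.23 (adjusted p = 0.000223), and Nubpl, which serves complex I, by 0.72. Of the electron carriers and transporters, Coq9, Etfa, which passes electrons from fatty acid oxidation, and Slc25a4, an ADP/ATP carrier, fell. The regulator Esrra rose (0.70 ± 0.20; adjusted p = 0.0278). Import genes gave 3 rises and 2 falls of 29 probe sets, and no antioxidant probe set was called. The shares called were 25.0% for the citric acid cycle, 17.2% for import, 12.5% for carriers, 11.3% for the ribosome, 4.0% for regulators and 3.51% for assembly factors.

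Earlier days gave few calls in the adrenal. On day 1 at 60 mg/kg 1 of 90 members was called (0.335% of all probe sets): Atp5f1e, the epsilon subunit of ATP synthase, scored -1.18, -1.03, -1.21 and -1.05 in treated rats and -0.12, -0.50, -0.61 and -0.22 in controls (-0.76 ± 0.18; adjusted p = 0.0493). The groups did not overlap, and the call ended whichever of the 8 rats was left out (adjusted p up to 0.19), and with only the compared groups in the fit. On that day 23 of 90 members were positive, against 52.3% of all probe sets, and the median difference was -0.26, against 0.01. The mean over all members was 0.07, 0.32, 0.15 and 0.12 in treated rats and 0.37, 0.40, 0.45 and 0.54 in controls, without overlap. Of related genes, a probe set of the import chaperone Hspa9 rose (1.55 ± 0.30; adjusted p = 0.0088). The brown fat uncoupler Ucp1 scored -0.26, -0.41, -0.48 and -0.43 in treated rats and 2.69, 2.08, 2.06 and 3.71 in controls, and Cox8b 0.17, 0.42, 1.61 and 0.23, against 0.90, 1.74, 1.40 and 1.61. The mean of 6 brown fat probe sets, which include Cox8b and Cox7a1, was 0.25 to 0.71 in treated rats and 0.85 to 1.28 in controls. The part of brown fat around the gland in these differences was not tested.

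On day 4 at 60 mg/kg 2 members were called (0.889% of all probe sets). Ndufa4l2 scored -0.22, 1.76, 0.13 and 0.93 in treated adrenals and -0.35, -0.58, -0.55 and 0.08 in controls (1.00 ± 0.25; adjusted p = 0.0361). Ndufs4, an accessory subunit of complex I, scored 0.19, 0.02, -0.52 and -0.04 in treated rats, against 0.44, 0.56, 0.14 and 0.63 in controls (-0.53 ± 0.13; adjusted p = 0.038). Both genes' groups overlapped, and each call ended in 5 of the 8 omissions, with adjusted p up to 0.197 and 0.205. Neither was called with only the compared groups in the fit. Of related genes, a probe set of the assembly factor Foxred1 rose (1.07 ± 0.24; adjusted p = 0.0138). A probe set of the regulator Yy1 fell (-0.93 ± 0.18; adjusted p = 0.00499). At 3 mg/kg 0 of 90 members were called on days 1, 4 and 14 (0.00644%, 0.0354% and 0.00322% of all probe sets), and 6, 5 and 3 had an unadjusted p under 0.05, where 4.79%, 6.28% and 5.89% of all did. The day 14 effect of 60 mg/kg minus its day 1 effect gave 0 calls among the members (1.16% of all), and 18 at an unadjusted p under 0.05, where 13.7% of all passed it.

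AMG A at 30 mg/kg on day 14 gave no call in the adrenal, and most of the differences were positive. Of 90 members 0 were called (0.0% of all probe sets), 21 had an unadjusted p under 0.05, where 5.8% of all did, and 80 were positive, against 50.3% of all probe sets. The median difference was 0.35, against 0.00 over all, and by complex it lay between 0.31 and 0.41. The mean over all members was 0.34, 0.75, 1.08 and 0.53 in treated rats and 0.29, 0.42, 0.34 and 0.36 in controls, so the lowest treated rat lay among the controls. Ndufs7 scored 2.30, 1.53, 2.13 and 1.66 in treated rats and 0.96, 1.31, 0.89 and 0.50 in controls (0.99 ± 0.34; adjusted p = 0.684). Animal 3035, with the highest mean, also had the highest Ucp1, 5.10, and Cox8b, 5.27. Over the 4 treated rats Ucp1 was 1.26, 0.54, 5.10 and 3.54, against -0.31, 2.67, -0.35 and -0.22 in controls, and Cox8b 1.43, 0.72, 5.27 and 1.98, against 0.61, 1.95, 0.44 and 0.25. The part of brown fat in these differences was not tested. At 3 mg/kg 0 of 90 members were called (0.0% of all), and 1 had an unadjusted p under 0.05, where 3.47% of all did.

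In the liver at AMG B 60 mg/kg on day 14, 7 members fell and 1 rose, a share of 8.89%, where 5.66% of all probe sets were called. All 7 falls were subunits of complex I, 2 of them core. Ndufs7 scored -1.08, -0.94, -0.32 and -0.65 in treated livers and 0.93, 0.67, 0.00 and 0.27 in controls (-1.22 ± 0.26; adjusted p = 0.0047). Ndufs8, the core subunit that holds a pair of iron-sulfur clusters, scored -0.29, -0.57, -0.25 and -0.56 in treated rats, against 0.12, 0.45, -0.11 and 0.08 in controls (-0.55 ± 0.15; adjusted p = 0.0302). The groups of both genes were apart, though the lowest control of Ndufs8 came close to the highest treated rat. Ndufb10 scored 0.32, 0.80, 0.37 and 0.64 in treated rats and 1.64, 1.43, 0.86 and 1.37 in controls (-0.79 ± 0.24; adjusted p = 0.047). Ndufb6 scored 1.12, 1.15, 0.72 and 1.00 in treated rats, against 1.83, 1.67, 1.31 and 1.80 in controls (-0.65 ± 0.19; adjusted p = 0.0357). Ndufb10 and Ndufb6 both belong to the membrane arm, and neither overlapped between groups. Ndufa11 scored 0.89, 1.03, 0.54 and 0.93 in treated rats and 1.40, 1.41, 1.33 and 1.61 in controls (-0.59 ± 0.17; adjusted p = 0.0377). Ndufa13, also known as a cell death regulator, scored 0.72, 0.89, 1.10 and 0.92 in treated rats, against 1.98, 1.34, 1.20 and 1.45 in controls (-0.59 ± 0.16; adjusted p = 0.0236), and Ndufb5 averaged 0.33 ± 0.19 and 0.75 ± 0.08 (SD, n = 4 each; difference -0.42 ± 0.13, adjusted p = 0.0424).

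The rise was Uqcrc2 probe set 1382280_at, with -0.50, -0.93, -0.20 and -0.33 in treated livers and -1.08, -1.10, -1.10 and -1.02 in controls (0.59 ± 0.13; adjusted p = 0.00521). The other Uqcrc2 probe set, 1373362_at, hardly differed (0.01; adjusted p = 0.967). The calls of Uqcrc2 and Ndufs7 held in every omission, and the other 6 ended in 2 to 7 of 8, with adjusted p up to 0.142. Between 2 and 6 members were called when a rat was left out, with 2 without control animal 25, 3 without control animal 26 or 28 and 5 without treated animal 36. Macrophage marker probe sets, 7 of 9 called lower, had means of -0.86 to 1.10 in treated livers and 0.63 to 1.59 in controls, endothelial ones (4 of 12 called lower) -0.19 to -0.07 and 0.06 to 0.65, and erythroid ones (3 of 6 called lower) -1.05 to -0.10 and 0.74 to 1.19. Hepatocyte means were 0.86 to 1.24 and 0.60 to 0.92, and the part of these cells was not tested. With only the compared groups in the fit no member was called. Against 3 mg/kg, Ndufb6 fell (-0.75 ± 0.19; adjusted p = 0.0205) and a Uqcrc2 probe set rose (0.56 ± 0.13; adjusted p = 0.0109), where 3.79% of all probe sets were called. The other Uqcrc2 probe set had the opposite sign and was not called. Without animal 29, 30 or 35 the Ndufb6 call ended, and without animal 33 the count was 5. Neither Ndufb6 nor Uqcrc2 was called with only the compared groups in the fit. Of related genes, Idh2, the mitochondrial isocitrate dehydrogenase that makes NADPH (0.72 ± 0.11), Sirt3, a mitochondrial deacetylase (1.65 ± 0.42), Lrpprc, which stabilises mitochondrial mRNA (1.78 ± 0.29), Slc25a3, the phosphate carrier, and Mrpl57 rose, and the regulator Nrf1 fell (-2.71 ± 0.81; adjusted p = 0.0459). No import or antioxidant probe set was called.

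On day 4 at AMG B 60 mg/kg 2 liver members rose (0.68% of all probe sets called). Ndufa11 scored 2.23, 1.41, 2.27 and 1.38 in treated rats and 0.85, 1.27, 0.65 and 0.90 in controls (0.91 ± 0.17; adjusted p = 0.00669). A Ndufa7 probe set (1375411_at) scored 0.51, 0.87, 0.43 and 0.46 in treated rats, against -0.83, -0.25, -0.20 and -0.69 in controls (1.06 ± 0.22; adjusted p = 0.0148). Neither overlapped, and the Ndufa7 call ended without animal 16 or 22 (adjusted p up to 0.0573). The other Ndufa7 probe set also had a positive difference and was not called. With only the compared groups in the fit both calls ended (adjusted p = 0.224 for Ndufa11 and 0.0793 for Ndufa7). Ndufa11 was thus called higher on day 4 and lower on day 14, a difference between days that was not tested. On day 1 at 60 mg/kg 0 of 90 members were called (0.0548% of all), and 7 had an unadjusted p under 0.05, where 8.0% of all did. At 3 mg/kg 0 were called on days 1, 4 and 14 (0.00966%, 0.0226% and 0.0% of all), and 2, 3 and 5 had an unadjusted p under 0.05, where 4.57%, 5.76% and 6.5% of all did. The day 14 effect of 60 mg/kg minus its day 1 effect gave 0 calls (0.193% of all) and 11 at an unadjusted p under 0.05 (11.4% of all).

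AMG A gave 1 call among the members in the liver on day 1 and 1 on day 14. At 30 mg/kg on day 1, Ndufv3 probe set 1368567_at scored -1.28, -0.86, -1.08 and -0.92 in treated livers and -1.51, -1.88, -1.57 and -1.64 in controls (0.61 ± 0.13; adjusted p = 0.023), where 0.366% of all probe sets were called. On day 14, Ndufa11 scored -1.09, -1.07, -1.19 and -1.33 in treated rats, against -0.37, -0.21, 0.36 and 0.12 in controls (-1.15 ± 0.27; adjusted p = 0.0497; 0.353% of all called). Neither overlapped, but the Ndufv3 call ended in 5 of 8 omissions, without animal 3002, 3003, 3004, 3026 or 3028 (adjusted p up to 0.0702), and the Ndufa11 call in 7 of 8, all but that of control animal 3009 (adjusted p up to 0.152). Both calls ended with only the compared groups in the fit. The other Ndufv3 probe set also had a positive difference on day 1 and was not called. At 30 mg/kg on day 4, 0 of 85 members were called (0.0693% of all), with 5 at an unadjusted p under 0.05 (10.2% of all). At 3 mg/kg 0 were called on days 1, 4 and 14 (0.0378%, 0.0126% and 0.0063% of all), and 17, 3 and 8 had an unadjusted p under 0.05, where 10.0%, 7.19% and 7.78% of all did. The day 14 effect of 30 mg/kg minus its day 1 effect gave 0 calls (0.0% of all) and 4 at an unadjusted p under 0.05 (4.75% of all).

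**Figure D5:**
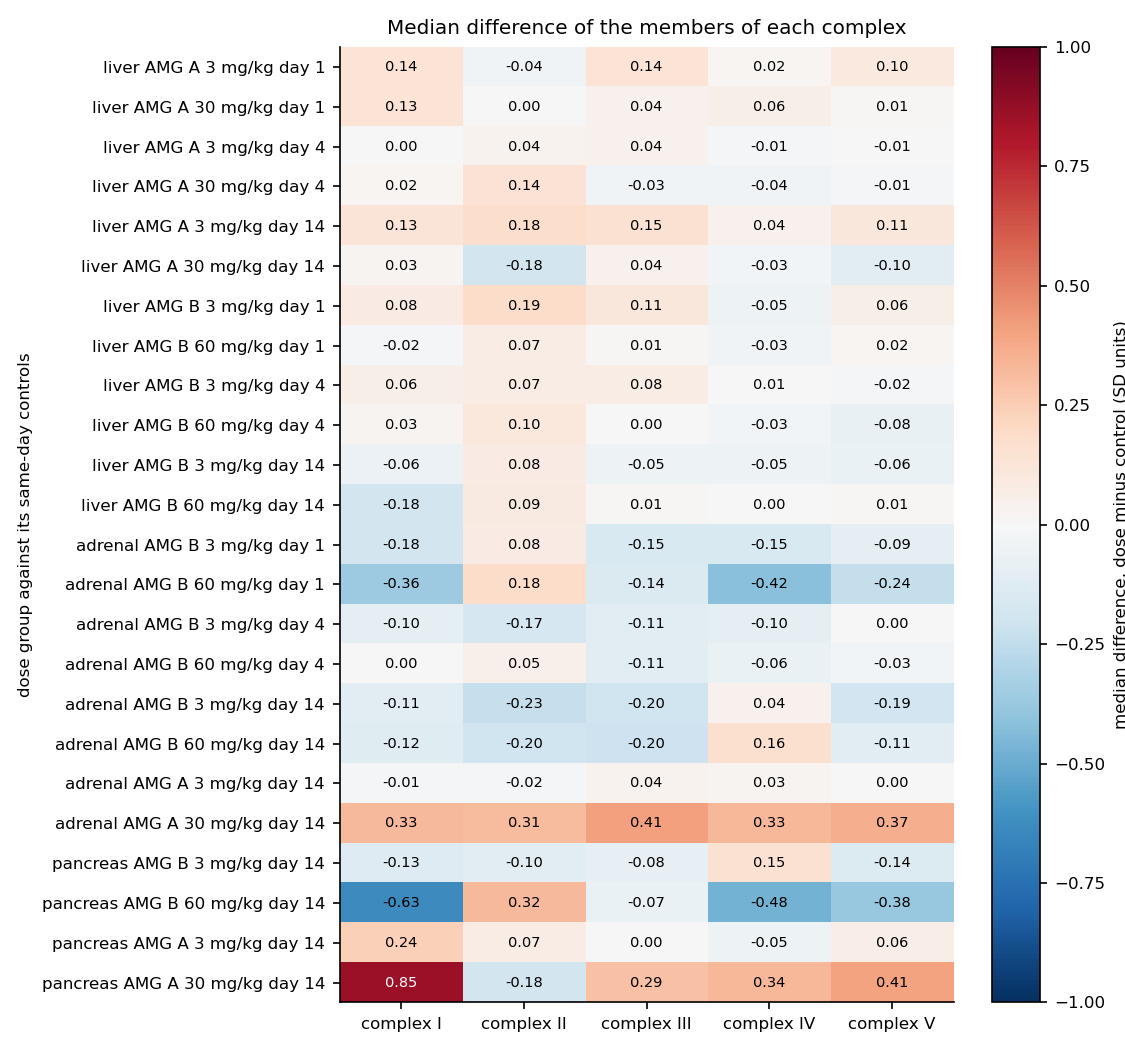
Median difference in score (colour and printed value, SD units) of the members of each complex (columns) for each dose group against its same-day controls (rows). The largest medians are those of complex I in the pancreas, -0.63 at AMG B 60 mg/kg and 0.85 at AMG A 30 mg/kg.

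The effect of AMG B 60 mg/kg on day 14 differed between the pancreas and both other tissues for many members, tested as differences of effects. Liver minus pancreas gave 18 higher and 0 lower members, where 9.31% of all probe sets were called, 10 of them in complex I and 7 in complex V. The largest were Ndufa4l2 (2.68 ± 0.46, SE; adjusted p = 0.000368), Atp5me, the e subunit of ATP synthase, with 2.33 ± 0.71 for probe set 1377191_at (adjusted p = 0.034), Atp5mf (2.24 ± 0.47; adjusted p = 0.00273) and Ndufs6 (2.17 ± 0.45; adjusted p = 0.00223). Ndufa4l2 averaged 0.17 ± 0.61 in treated and 2.78 ± 0.77 in control pancreases (SD, n = 4 each). Adrenal minus pancreas gave 20 higher and 5 lower members (9.55% of all called). The largest positive differences were Cox4i2 (3.31 ± 0.68; adjusted p = 0.0020), Ndufb2 (2.64 ± 0.38; adjusted p = 4.52e-05), Cox6b2 (2.43 ± 0.39; adjusted p = 0.000138) and Ndufa3 (2.38 ± 0.34; adjusted p = 4.03e-05). The largest negative ones were Ndufv3 probe set 1368567_at (-1.52 ± 0.37; its other probe set was called higher, 2.07 ± 0.57, and their mean gave 0.28 with adjusted p = 0.70), Uqcr11 (-1.43 ± 0.41), Atp5f1a (-1.43 ± 0.39) and Sdha (-1.25 ± 0.26; adjusted p = 0.00246). Cox4i2 and Sdha were thus called in opposite directions in adrenal and pancreas, and the difference itself passed the test for both. Liver minus adrenal gave 0 calls (1.04% of all), and 9 members had an unadjusted p under 0.05, where 8.84% of all did. Without control animal 26 the counts were 10 for liver minus pancreas and 15 for adrenal minus pancreas. For liver minus pancreas, quantile normalization or centring with scaling of the arrays gave 8, and only the compared groups 11. The fit over the 3 tissues used a spread shared by all of them. The SE of Ndufb2 was 0.38 for this difference of effects, but 0.49 for its effect in the pancreas fit. Where the pancreas varied more, these adjusted p values may be too low. Cox6b2 was not called in the pancreas itself (adjusted p = 0.119).

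The promoters of 4 members that fell are shown because each holds a word of a known regulator of respiratory genes, and Ndufs7 and Ndufa11 were called in more than 1 tissue; they were chosen after their values were seen. RefSeq windows of assembly GRCr8, from 250 bases before to 50 after a start point set for each gene, were matched to 72 of the 81 member genes. The words searched on both strands were GCGCATGC for NRF1, CCGGAAGT for GABPA, AAGATGGCG for YY1, TCAAGGTCA for ESRRA and TGACGTCA for CREB, all known regulators of respiratory genes. In the sequences, 5′ to 3′ on the gene's strand, capitals mark these words. Ndufa2 lies on the minus strand (chr18:28631835-28632134), Ndufs6 on the plus strand (chr1:31797150-31797449), Ndufs7 on the minus strand (chr7:10110449-10110748) and Ndufa11 on the plus strand (chr9:1637364-1637663). The Ndufs7 window lies wholly inside the annotated gene, which spans 10103226 to 10110862, so its start point is not the outer end of the gene.
Ndufa2: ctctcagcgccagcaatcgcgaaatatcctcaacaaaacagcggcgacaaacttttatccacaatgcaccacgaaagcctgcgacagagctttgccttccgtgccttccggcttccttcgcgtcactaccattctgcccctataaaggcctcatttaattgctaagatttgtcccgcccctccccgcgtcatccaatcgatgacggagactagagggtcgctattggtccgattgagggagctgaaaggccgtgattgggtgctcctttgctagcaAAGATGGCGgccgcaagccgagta
Ndufs6: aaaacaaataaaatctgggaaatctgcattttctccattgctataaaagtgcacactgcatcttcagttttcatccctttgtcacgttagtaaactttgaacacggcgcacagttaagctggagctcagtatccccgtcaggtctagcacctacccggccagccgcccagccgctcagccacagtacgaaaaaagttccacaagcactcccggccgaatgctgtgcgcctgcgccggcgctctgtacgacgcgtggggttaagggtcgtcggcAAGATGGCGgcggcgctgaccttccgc
Ndufs7: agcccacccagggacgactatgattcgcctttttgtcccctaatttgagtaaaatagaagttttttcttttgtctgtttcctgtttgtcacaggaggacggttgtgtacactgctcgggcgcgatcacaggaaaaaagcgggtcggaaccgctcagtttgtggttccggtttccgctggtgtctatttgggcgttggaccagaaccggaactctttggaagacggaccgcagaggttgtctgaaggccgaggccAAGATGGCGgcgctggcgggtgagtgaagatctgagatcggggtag
Ndufa11: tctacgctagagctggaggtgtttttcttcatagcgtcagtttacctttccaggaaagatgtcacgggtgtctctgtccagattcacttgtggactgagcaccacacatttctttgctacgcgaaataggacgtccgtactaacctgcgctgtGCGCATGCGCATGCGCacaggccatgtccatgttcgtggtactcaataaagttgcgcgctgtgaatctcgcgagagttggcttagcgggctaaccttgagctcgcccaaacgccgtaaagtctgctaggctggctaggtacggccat

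The first 3 hold the YY1 word after the start point, on the gene's strand, beginning at bases 27, 24 and 5 counted from 1 there. For Ndufs7 that start point lies inside the annotated gene. Ndufa11 holds the NRF1 word in overlapping copies on both strands, the first beginning at base -97. The YY1 word was in 10 of 72 member windows (13.9%), against 1.93% of all 27457 windows, and in 8 of them it lay on the gene's strand within the 50 bases after the start (11.1%, against 0.921% of all). The NRF1 word was in 9.72% of member windows and 2.66% of all, the GABPA word in 11.1% and 4.01%, the CREB word in 4.17% and 1.91%, and the ESRRA word in 2.78% and 0.412%. Of the 18 matched genes that fell in the pancreas at AMG B 60 mg/kg, 4 held the YY1 word, 3 the NRF1 word, 1 each the GABPA and CREB words and 0 the ESRRA word. Of the 54 other members, 6, 4, 7, 2 and 2 did, in the order YY1, NRF1, GABPA, CREB and ESRRA. These are matches of letters in a window and were not measured as binding sites.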

How the data were processed

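Affymetrix arrays of 144 rat tissue samples came as 2 tables that the authors deposited in the unit score, each probe set centred near 0 with an SD of about 1, jointly over both where it occurs in both. Per the labels, 5 ug of total RNA per sample were biotin-labelled in one cycle. The sources used here do not give the signal summary, scaling, any log step or signal over background, so no filter on low values was possible. The highest correlation between 2 arrays was 0.769 within the larger table and 0.792 within the smaller, so none was treated as a duplicate. The number of arrays limits the precision.

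Members and lists were chosen with earlier results of these data known. Members were read as probe sets, by platform symbols checked against RefSeq GRCr8. Some day 14 control titles do not name a study; these were assigned through the animal numbers of the livers. The statistic was limma 3.58.1, using lmFit, contrasts.fit and trended eBayes (R 4.3.3), with the R package data.table (version 1.17.8), one term per group of 4 rats, fitted separately to liver of each study, adrenal, pancreas and the 3 tissues of the AMG B study on day 14, and checked on simulated data. Python 3.11.15, pandas 2.3.3, numpy 2.4.6 and matplotlib 3.10.9 were also used. Named were all called members of a dose contrast, or above 8 calls up to 8 rises and 8 falls without overlap; up to 4 and 4 in other contrasts; 13 anchor genes; and paired isoforms.

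Animal numbers tie tissues of the same rat: deviations from group means correlated at a median of 0.0495, 0.0149 and 0.0227 across probe sets within a rat (liver and adrenal, liver and pancreas, adrenal and pancreas), against -0.0165, -0.00587 and -0.00916 between rats. The tissue contrasts were therefore also fitted with the animal as a replicate block. Other alternatives were quantile normalization, centring and scaling of arrays, probe sets with 1 symbol, 1 probe set or the mean per gene, only the compared groups, no variance trend and each rat left out.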

Additional observations from a re-analysis of the deposited data

Results flagged for a closer look

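In single groups of 4 rats, 5 values stood apart from the other 3. Chance does this in about 1 in 20 groups, so over 36 groups and several probe sets some such values are due by chance alone. The mean over all members was 0.577 in the adrenal of AMG A 3 mg/kg animal 3024, against 0.27 to 0.29 in the others, and 0.501 in the liver of AMG B 60 mg/kg animal 35 on day 14, against 0.17 to 0.19. Ndufa7 probe set 1375411_at scored 0.869 in the liver of AMG B 60 mg/kg animal 22 on day 4, against 0.43 to 0.51. In the adrenal at AMG B 60 mg/kg on day 14, Sdha scored 0.455 in animal 35, against 1.06 to 1.17, and Ndufv1 1.34 in animal 34, against 0.56 to 0.69.

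The AMG B 60 mg/kg effect on day 14 differed between tissues by a test of the difference itself in 18 members for liver minus pancreas and in 25 for adrenal minus pancreas.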

How the results depend on the processing

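Scores carry no measure of signal over background, and 4 rats a group limit the precision. Counts of called members stayed within 1.5 times the main count in 249 fits that left out a rat and moved further in 51, and stayed in 266 other fits and moved in 28. A count of 0 that remained 0 is among those that stayed, and most contrasts had no called member. These totals therefore do not show that counts were stable in the contrasts with calls. With only the compared groups the count was 0 for AMG A 30 mg/kg in liver on days 1 and 14, for AMG B 60 mg/kg in liver and adrenal on days 4 and 14 and in adrenal on day 1, and for 60 against 3 mg/kg in liver and pancreas. It was 16 for AMG B 60 mg/kg in pancreas and 11 for the effect in liver minus pancreas. With the mean of a gene's probe sets the count was 0 for AMG A 30 mg/kg in liver on days 1 and 14 and for AMG B 60 mg/kg in adrenal on day 1, and 1 for AMG A 30 mg/kg in pancreas and for 60 against 3 mg/kg in adrenal. With 1 probe set per gene it was 1 for AMG B 60 mg/kg in liver on day 4 and 1 for 60 against 3 mg/kg in adrenal. With only 1-symbol probe sets it was 0 for AMG A 30 mg/kg in liver on day 14 and 4 for 60 against 3 mg/kg in liver. Quantile normalization and centring with scaling each gave 3 for AMG B 60 mg/kg in adrenal on day 1, 8 for the effect in liver minus pancreas and 1 in liver minus adrenal. Centring gave 1 for AMG A 30 mg/kg in pancreas, and no variance trend 0 in adrenal on day 1. The causes were not tested.

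When a rat was left out, the counts were 0 to 2 and 0 to 1 for AMG A 30 mg/kg in liver on days 1 and 14, 1 to 2 and 2 to 6 for AMG B 60 mg/kg in liver on days 4 and 14, and 1 to 5 for 60 against 3 mg/kg there. In adrenal they were 0 on day 1, 0 to 3 on day 4 and 3 to 7 on day 14 at 60 mg/kg, 0 to 1 at 3 mg/kg on day 14, 0 to 4 for 60 against 3 mg/kg and 0 to 1 for the day difference. In pancreas they were 17 to 24 at AMG B 60 mg/kg, 0 to 3 at AMG A 30 mg/kg and 8 to 17 for 60 against 3 mg/kg. For the effects they were 10 to 16 in liver minus pancreas and 15 to 25 in adrenal minus pancreas.

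With the replicate block on the animal, the counts were 17, 26 and 0 for the effects in liver minus pancreas, adrenal minus pancreas and liver minus adrenal, and 59, 72 and 55 for the same contrasts of controls, all within 1.5 times the main count. Ndufv3 probe set 1368567_at turned its direction when both probe sets were averaged, to -0.88 in pancreas at AMG B 60 mg/kg, -0.80 against 3 mg/kg and 0.28 in adrenal minus pancreas. The planned filter on low values was not run.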
